A study of Mus musculus with 10 samples.

Results

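The choroid plexus is the epithelium of the brain ventricles that secretes cerebrospinal fluid, and the genes described here encode its secreted proteins, receptors and transporters. A list of 10 such genes was matched by exact symbol to probes that carry a single symbol. Of these, 5 were found, on 6 probes, among the 9930 genes named on the array. They were Ttr with 2 probes and Sostdc1, Folr1, Aqp1 and Igfbp2 with 1 probe each. Kl, Clic6, Kcnj13, Enpp2 and Slc4a5 matched no single-symbol probe in the annotation used here and were not analysed here. The genes were selected on their known role in this tissue, with the mean ratios of these same arrays already known. Those means are therefore given as a description. The fit over all probes included them, and nothing about these genes is supported by it.

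The mutant group was 5 male Cin85-/- mice, aged 15 weeks, and the control was a pool of brain RNA from male wt mice of the same age. CIN85 is an adaptor protein, encoded by Sh3kbp1, that binds Cbl proteins and takes part in receptor uptake. Each mouse was hybridised against the pool on 2 arrays with the dyes exchanged, so that its own RNA carried Cy5 on one and Cy3 on the other. The pool held 5 mice by the series design and 6 by the labelling protocol, and it is a single control sample, so no spread between wildtype mice was measured. The labels name brain as the tissue, add to the mutant channel an abbreviation, Kdn, that they do not explain, and state neither the strain background nor how the allele was made.

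Transthyretin, the product of Ttr, carries thyroid hormone and retinol-binding protein in cerebrospinal fluid and is the most characteristic secreted protein of choroid plexus epithelium. Sostdc1 is a secreted inhibitor of BMP and Wnt signals. Folr1 is the folate receptor by which the epithelium takes folate towards the fluid, Aqp1 is the water channel of its apical membrane, and Igfbp2 is a secreted binding protein for insulin-like growth factors. In brain RNA, a difference in the amount of choroid plexus and a difference in transcript per epithelial cell cannot be told apart. Igfbp2 is also made in the meninges, and Aqp1 in red blood cells.

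The arrays held between 16816 and 19424 log2 ratios each. No channel intensity was analysed here, so expression levels of the genes, and their detection above background, are unknown, and the choroid plexus label could not be checked against marker levels. Tests covered the 16939 probes for which 4 or more mice were measured on both of their arrays. The array of mouse 3 with the mutant in Cy3 had the fewest values and the widest interquartile range, 1.43, where the lowest of the 10 was 0.45. The labels state neither the numerator of the ratio nor whether exchanged arrays were turned to one direction before deposit. Signs below are those of the deposited columns, and they do not settle which sample was higher. Each array repeated an extreme value at many probes, positive with the mutant in Cy5 and negative with it in Cy3. If every column runs mutant over pool, the lower channel at those probes was always Cy3. If every column runs Cy5 over Cy3, the lower channel there was always the pool. Which of these holds was not tested. Correlations between arrays were taken across probes, with that extreme value left out. Arrays of the same dye orientation had a median Pearson r of 0.15, lowest -0.067 and highest 0.26. The arrays of one mouse, which differ in orientation, had a median r of -0.18. Arrays of opposite orientation from different mice had a median r of -0.15, lowest -0.29 and highest 0.024. Both readings are therefore given. The pair mean averages the 2 arrays of a mouse as deposited, and is the difference from the pool if every column runs mutant over pool. The dye term takes the Cy5 array of a mouse, subtracts its Cy3 array and divides the result by 2. It is the difference from the pool if every column runs Cy5 over Cy3. The gene of the deleted protein, Sh3kbp1, had 2 probes. On probe 8640 the log2 ratio centred on the array median was 0.12 ± 0.10 with the mutant in Cy5 and -0.11 ± 0.21 for the Cy3 arrays (SD, n = 5 each), with a pair mean of 0.01 ± 0.14. Probe 4508 had values on 4 arrays and was not tested. With the mutant in Cy5 it had 2.71 in mouse 2, 3.19 in mouse 4 and the repeated extreme value of its array in mouse 5, and its 1 Cy3 value was -2.38, in mouse 4. These were far larger in size than the values of probe 8640, and of opposite sign in the 2 arrays of mouse 4. Where these probes lie relative to the deleted part is unknown here, so they do not check the genotype.

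**Figure D1:**
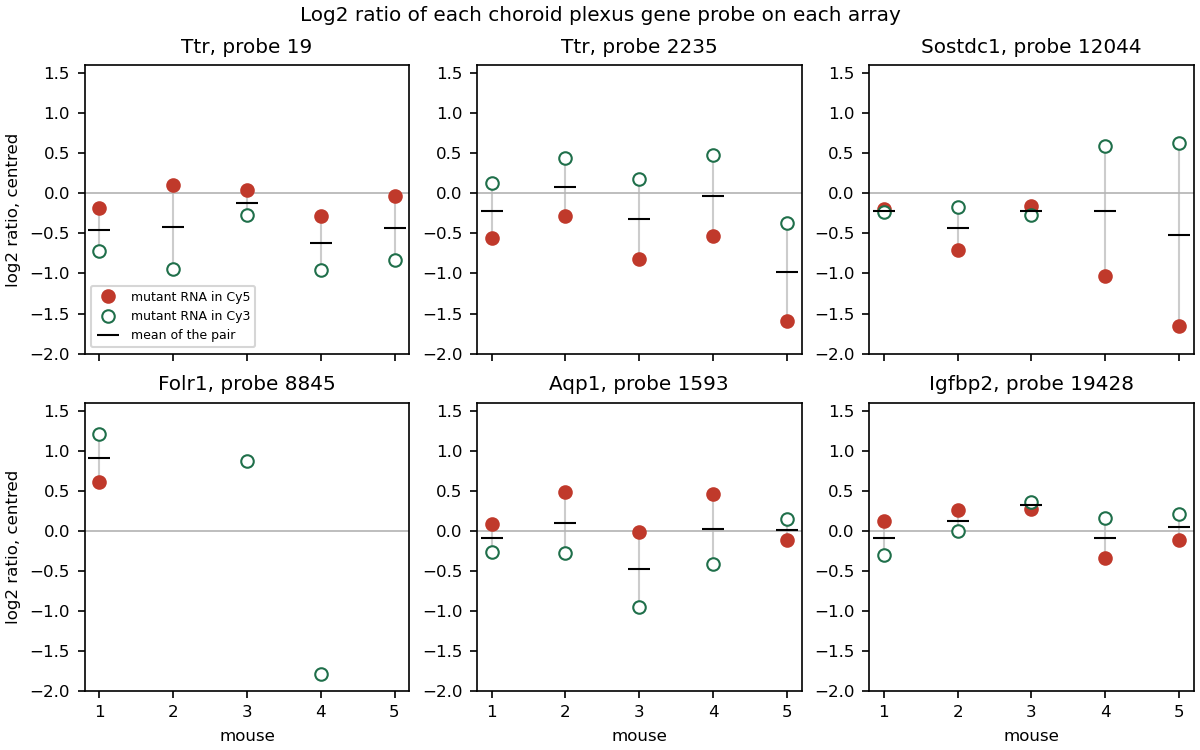
Log2 ratio, centred on the array median, of the 6 choroid plexus gene probes (vertical axis) in mice 1 to 5 (horizontal axis). Filled circles are arrays with the mutant RNA in Cy5, open circles arrays with it in Cy3, and dashes the mean of the pair. Ttr probe 19 had the open circle below the filled one in all 5 mice and Ttr probe 2235 had it above in all 5.

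The 2 Ttr probes, annotated to the same gene, moved in opposite directions when the dyes were exchanged. On probe 19 the median-centred log2 ratios of mice 1 to 5 were -0.19, 0.10, 0.04, -0.28 and -0.03 with the mutant in Cy5. With the mutant in Cy3 they were -0.72, -0.95, -0.28, -0.96 and -0.83. The values near 0 were thus those of the Cy5 arrays, and 4 of the 5 Cy3 arrays lay well below them, while mouse 3 in Cy3 lay level with mouse 4 in Cy5. The orientation means were -0.07 ± 0.16 and -0.75 ± 0.28 (SD, n = 5 mice each).

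On Ttr probe 2235 the Cy5 arrays of mice 1 to 5 gave -0.56, -0.28, -0.82, -0.53 and -1.59. The Cy3 arrays gave 0.13, 0.45, 0.18, 0.47 and -0.37. Here the Cy5 arrays were the low ones, averaging -0.75 ± 0.50, while the Cy3 arrays averaged 0.17 ± 0.34 (SD, n = 5 each). The orientations overlapped only through mouse 2 in Cy5 and mouse 5 in Cy3. Mouse 5 was the lowest mouse in both orientations on this probe. On probe 19 mouse 5 lay inside the range of the other mice in both.

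The dye term of Ttr probe 19 was 0.34 ± 0.14 (SD, n = 5), positive in 5 of 5 mice, and limma put its 95% interval at 0.09 to 0.58 (adjusted p = 0.115). That of Ttr probe 2235 was -0.46 ± 0.11 (SD, n = 5), negative in 5 of 5 mice, and its limma interval was -0.70 to -0.23 (adjusted p = 0.0988). Neither passed the threshold of 0.05. The 0.0988 is the smallest adjusted p of the table and was shared by 702 probes. The gap between the Ttr probes in dye term was 0.80 ± 0.16 (SD, n = 5), between 0.61 and 1.01 in each mouse. This gap was chosen after the values were seen and is given without a test. If the dye term is read as the difference from the pool, the 2 probes of Ttr give opposite directions for the same gene.

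As pair means, both Ttr probes were below 0. Mice 1 to 5 had -0.45, -0.42, -0.12, -0.62 and -0.43 on probe 19, which is negative in 5 of 5 and smallest in size in mouse 3. On probe 2235 they had -0.22, 0.09, -0.32, -0.03 and -0.98, so 1 mouse was above 0, another was near it, and mouse 5 stood lowest. The means were -0.41 ± 0.18 and -0.29 ± 0.42 (SD, n = 5 each). Without mouse 5 the mean of probe 2235 was -0.12, and that of probe 19 was -0.40. With the mutant in Cy3 alone, probe 2235 had the opposite sign, as its orientation means above show.

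**Figure D2:**
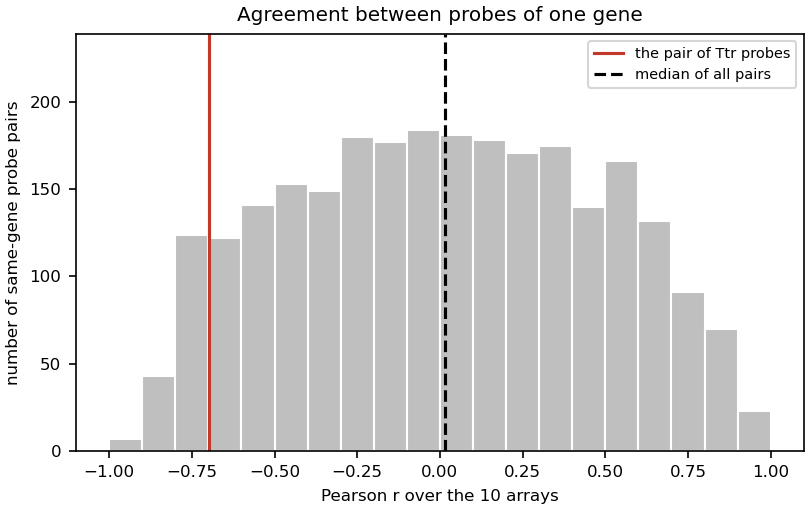
Number of probe pairs of the same gene (vertical axis) by their Pearson r over the 10 arrays (horizontal axis), in bins of 0.1, for 2607 pairs. The solid line marks the 2 Ttr probes at -0.70 and the dashed line the median of all pairs at 0.014.

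Ttr was not alone in this. Over the 10 arrays the Ttr probes had a Pearson r of -0.70, where 2607 same-gene probe pairs of 1662 genes had a median of 0.014 and a 5th percentile of -0.74. After the mean of each dye orientation was removed, the r of the Ttr pair was -0.12 and the median of all pairs 0.013. The 10 arrays come from 5 mice and share the pool, so these are descriptions. Opposite dye terms were found for 1297 of the 2607 pairs, or 49.8%, and opposite pair means for 48.3%. Pairs like Ttr, with opposite dye terms that each held in all 5 mice, numbered 120, or 4.60%. Of single probes measured in every mouse, 30.5% had a dye term of one sign in all 5. The share among pairs of probes from different genes was not computed, so the 4.60% does not mark Ttr out. The Ttr gap in dye term lay at the 88th percentile of the 2607 same-gene pairs, whose median gap was 0.33.

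Sostdc1, the secreted inhibitor, had 1 probe, on which some mice had similar arrays and others did not. With the mutant in Cy5, mice 1 to 5 gave -0.20, -0.71, -0.16, -1.04 and -1.66. With the mutant in Cy3 they gave -0.23, -0.17, -0.27, 0.59 and 0.63. Mice 1, 2 and 3 were negative on both arrays, while mice 4 and 5 were strongly negative on one and positive on the other. The dye term was -0.43 ± 0.53 (SD, n = 5), negative in 3 of 5 mice, and the limma interval ran between -0.93 and 0.07 (adjusted p = 0.226).

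The pair means of Sostdc1 were far more even than its arrays, at -0.21, -0.44, -0.22, -0.22 and -0.51 in mice 1 to 5. Their mean was -0.32 ± 0.14 (SD, n = 5), below 0 in all 5 mice, and their SD lay at the 10th percentile of tested probes. The SD of the dye term lay at the 73rd. In mice 4 and 5 the pair mean is the remainder of values on opposite sides of 0. With the mutant in Cy3 alone the mean was 0.11 ± 0.46 (SD, n = 5).

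Aqp1 stayed closer to 0. Its Cy5 arrays gave 0.09, 0.49, -0.02, 0.45 and -0.11 in mice 1 to 5, and its Cy3 arrays -0.26, -0.28, -0.95, -0.42 and 0.14. The Cy5 array was the higher in 4 of 5 mice, and the orientations overlapped. The dye term was 0.27 ± 0.25 (SD, n = 5), and its limma interval, -0.03 to 0.57, held 0 (adjusted p = 0.217). The pair means were -0.09, 0.10, -0.48, 0.02 and 0.01, with a mean of -0.09 ± 0.23 (SD, n = 5). That mean rested on mouse 3, whose Cy3 array is the sparse and wide one named above, and was 0.01 without that mouse.

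Igfbp2 had the smallest pair mean and the smallest dye term of the 5 tested probes. Its Cy5 arrays gave 0.12, 0.26, 0.28, -0.34 and -0.12, and its Cy3 arrays -0.31, -0.01, 0.36, 0.16 and 0.21. All 10 lay between -0.34 and 0.36, with the orientations fully interleaved. The dye term was -0.02 ± 0.19 (SD, n = 5), and limma bounded it between -0.29 and 0.25 (adjusted p = 0.911). The pair mean was 0.06 ± 0.17 (SD, n = 5), positive in 3 of 5 mice, and -0.0029 without mouse 3.

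Folr1 had values on 4 of 10 arrays and was not tested. Mouse 1 had 0.61 on its Cy5 array and 1.21 on its Cy3 array. Mice 3 and 4 had a Cy3 value only, 0.87 and -1.79, and mice 2 and 5 had none. The 4 values spanned the widest range of the 5 genes, and only mouse 1 gave a pair mean, 0.91.

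No tested probe of these genes passed limma at an adjusted p under 0.05 in either reading, and neither did any other of the 16939 probes, 0%. The smallest adjusted p over all probes was 0.911 for the pair mean. For the pair mean, Ttr probe 19 and Sostdc1 had an unadjusted p under 0.05, against 3.73% of all probes, and both were negative in 5 of 5 mice, against 3.57% of the 13572 probes measured in every mouse. Nothing is read from these counts, because the genes were selected with these means known. For the dye term, both Ttr probes had an unadjusted p under 0.05, or 2 of 5 probes, against 27.6% of all probes. Both Ttr probes also had a dye term of one sign in all 5 mice, against 30.5%. None of the 5 probes had its orientations fully apart over the 10 arrays, against 15.1% of all probes.

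**Figure D3:**
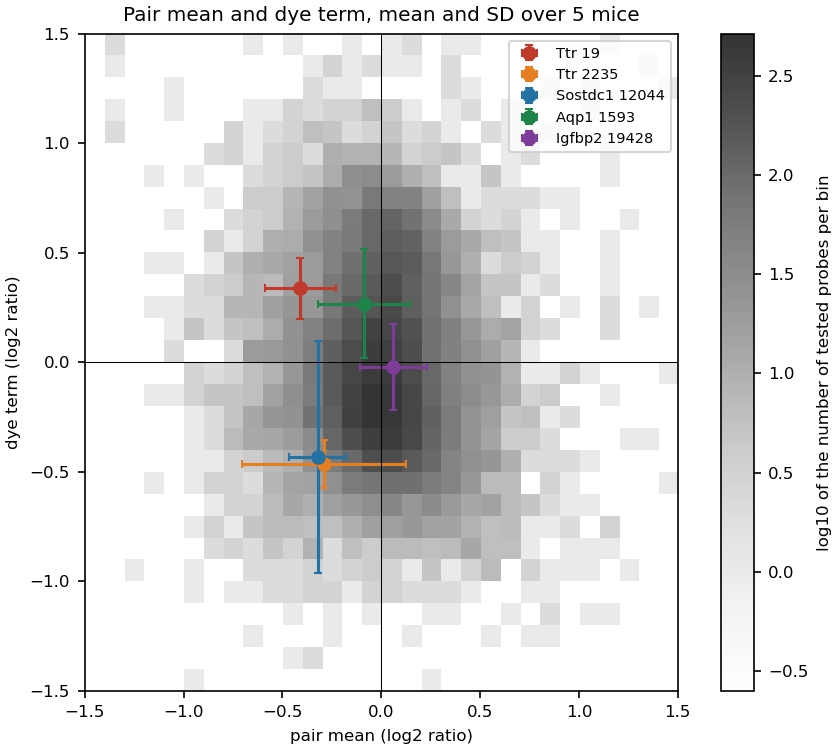
Pair mean (horizontal axis) against dye term (vertical axis), both in log2 ratio, for the 5 tested choroid plexus gene probes, with mean and SD over 5 mice, drawn over all tested probes binned in steps of 0.1 (grey scale, log10 of the number per bin; probes beyond the axes are not drawn). The Ttr probes share a negative pair mean and lie on opposite sides of 0 in dye term, at 0.34 and -0.46.

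In 9 of the 25 pairs formed by a tested probe and a mouse, the 2 arrays of the mouse had the same sign. That is 36%, and over all tested probes it was 37.7%. Ttr probe 19 and Sostdc1 each had 3 such mice, and Ttr probe 2235, Aqp1 and Igfbp2 each had 1. The spread of the pair mean over mice was below the median of all probes (SD 0.34) for 4 of the 5, and above it for Ttr probe 2235.

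Among the 10 pairings of the 5 tested probes, the Pearson r over arrays ran from -0.70 to 0.66. The highest was that of Ttr probe 2235 with Sostdc1, 0.66, and it was 0.31 after the orientation means were removed. The r of Ttr probe 19 with Sostdc1 was -0.66, and -0.25 after removal. The probes most like Ttr probe 19 over the 10 arrays, out of 9406, were those of Lcp1, Acsl6, Sorbs2, Rnd2 and 1110020A21Rik, with r between 0.970 and 0.977. Their dye terms lay between 0.28 and 0.49, the same sign as that of Ttr probe 19, and their pair means between -0.12 and 0.25. The probes most like the mean over the 4 tested genes were those of Tceal5, Nol3, Bak1, Dhrs3 and Cypt4, with r between 0.906 and 0.922. All points share the pool, and the dye orientation is common to each set of 5 arrays.

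Over the 4 tested genes, with the Ttr probes averaged, the median pair mean was -0.20, and the mouse medians were -0.15, -0.03, -0.22, -0.16 and -0.25. The median over all 8711 tested genes was -0.0033. The median dye term of the 4 genes was -0.04, with mouse medians from -0.16 to 0.11, and that of all genes was -0.05. It became 0.12 when Ttr was represented by probe 19 alone. Probe 2235, equally complete and with a dye term of -0.46, was not run alone.

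**Figure D4:**
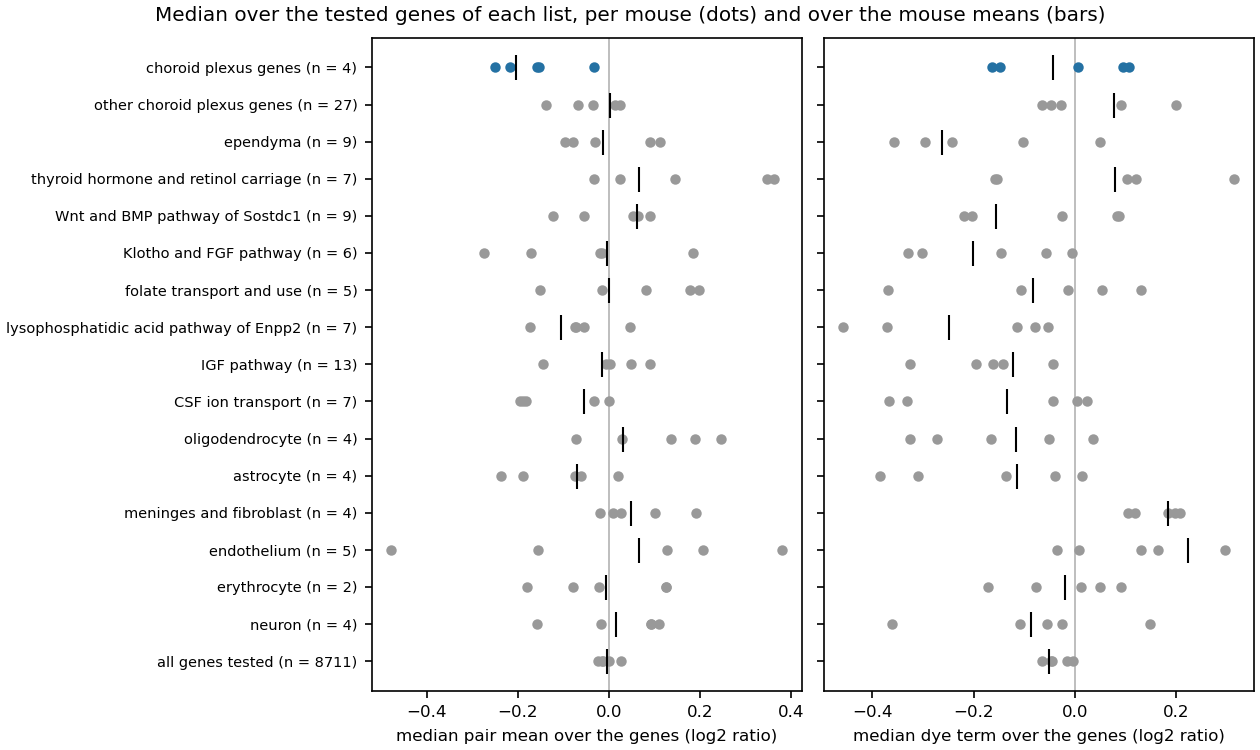
Median pair mean (left) and median dye term (right), in log2 ratio, over the tested genes of each list (rows, with the number of genes). Dots are the 5 mice and bars the median over mouse means. The 4 choroid plexus genes had mouse medians between -0.25 and -0.03 on the left, and the 27 other choroid plexus genes between -0.14 and 0.02.

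A wider list of 56 further choroid plexus genes had 32 on the array and 27 tested. Of these 14 had a positive and 13 a negative pair mean, with a median of 0.0022, and 15 a positive and 12 a negative dye term, with a median of 0.08. None passed in either reading. For the pair mean, 2 of 34 probes, or 5.88%, had an unadjusted p under 0.05, where all probes had 3.73%. For the dye term there were 11 of 34, or 32.4%, where all probes had 27.6%. F5, coagulation factor V, gave a pair mean of -0.48 ± 1.24 (SD, n = 5). That mean rested on mouse 1, at -2.67, whose Cy3 array gave -5.35. Mice 2 to 5 had -0.02, 0.34, 0.14 and -0.19. The cation channels Trpm3 and Trpv4 gave -0.07 ± 0.30 and -0.05 ± 0.32 (SD, n = 5 each). The membrane carbonic anhydrases, which make bicarbonate available to the transporters of fluid secretion, had pair means of opposite sign. Car12 had -0.29 ± 0.19 (SD, n = 5), negative in all 5 mice, and Car14 had 0.24 ± 0.31 (SD, n = 4), positive in 2 of 4. The further genes did not share the negative median of the 4 tested ones, and this difference was not tested.

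Ependyma, the ciliated lining next to the choroid plexus, had 9 tested genes, with 4 positive and 5 negative pair means and a median of -0.01. Foxj1, the transcription factor of motile cilia, had -0.75 ± 0.76 (SD, n = 5) on one probe and 0.16 ± 0.63 (SD, n = 4) on the other. Rsph1, of the ciliary radial spokes, likewise gave -0.12 ± 0.16 and 0.24 ± 0.39 (SD, n = 5 each). Its second probe had 2.41 on the sparse and wide Cy3 array of mouse 3. Dynlrb2, a dynein light chain, gave -0.01 ± 0.22 (SD, n = 5). The median dye term of this list was -0.26, from -0.36 to 0.05 over the mice.

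Genes that act with transthyretin in carrying thyroid hormone and retinol had 5 positive and 2 negative pair means among 7 tested. Rbp4, the retinol-binding protein, and Slco1c1, a thyroxine transporter, each held an extreme value that its array repeated at many probes. With such values set to missing, Slco1c1 had 0.44 ± 0.27 (SD, n = 4) and Rbp4 no longer met the filter. The thyroid hormone receptor gene Thrb had 0.41 ± 0.50 and -0.79 ± 0.30 on its 2 probes (SD, n = 4 each).

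The pathway on which Sostdc1 acts had 6 positive and 3 negative pair means among 9 tested genes, with a median of 0.06. The ligand genes Bmp4 and Bmp6 gave 0.06 ± 0.26 and 0.26 ± 0.19 (SD, n = 5 each), and Bmp6 was positive in all 5 mice. Bmp7, another ligand of the family, had -0.30 ± 0.78 and -0.85 ± 1.55 on 2 probes (SD, n = 5 each).

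Igfbp2 binds insulin-like growth factors. The genes of their pathway, receptor included, had 6 positive and 7 negative pair means among 13 tested, with a median of -0.02. Igf2, which choroid plexus and meninges secrete, gave -0.02 ± 0.21, and Igf1 gave -0.23 ± 0.45 (SD, n = 5 each). The receptor gene Igf1r had 3 probes with means of 0.05, 0.13 and -0.07.

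Folate transport and use had 3 positive and 2 negative pair means. Folr2, the folate receptor of macrophages, gave -0.29 ± 0.44, and the proton-coupled folate transporter Slc46a1, which works beside Folr1 in choroid plexus, gave 0.07 ± 0.15 (SD, n = 5 each). Shmt1, an enzyme that feeds carbon into the folate cycle, had 0.46 ± 0.35 (SD, n = 5), positive in 5 of 5 mice. Slc46a1 had a dye term of -0.35 ± 0.15 (SD, n = 5), negative in 5 of 5.

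Around the genes that could not be followed themselves, the FGF receptors and partners of klotho, the product of Kl, had 3 positive and 3 negative pair means. Fgfr1 gave -0.43 ± 0.69 (SD, n = 5), Fgfr3 -0.46 ± 1.01 and Fgfr4 0.07 ± 0.08 (SD, n = 4 each). Genes that sense or break down lysophosphatidic acid, which autotaxin, the product of Enpp2, makes, had 3 positive and 4 negative, with a median of -0.10. The receptor genes Lpar1 and Lpar2 gave -0.22 ± 0.37 and 0.02 ± 0.20, and Plpp1, a lipid phosphatase, 0.31 ± 0.90 (SD, n = 5 each). Plpp1 had 3.63 on the sparse and wide Cy3 array of mouse 3. Ion transport genes related to Slc4a5, Clic6 and Kcnj13 had 3 positive and 4 negative. Slc4a1, an anion exchanger, gave 0.15 ± 0.74 (SD, n = 4), and Clic1 gave -0.06 ± 0.42 (SD, n = 5). Car2, the cytosolic carbonic anhydrase, had pair means of -0.01, 0.04 and 0.02 on 3 probes. Its dye terms were -0.25 ± 0.11, -0.31 ± 0.11 and 0.38 ± 0.22 (SD, n = 5 each), each of one sign in all 5 mice, so probe 19291 opposed the other two, as in Ttr. The median dye term was -0.20 for the klotho and FGF genes, with 6 of 6 negative, -0.25 for the lysophosphatidic acid genes and -0.13 for the ion transport genes. It was 0.08 for thyroid hormone and retinol carriage and -0.16 for the pathway of Sostdc1. The insulin-like growth factor pathway had -0.12 and folate -0.08, beside -0.05 for all genes. Of all 8711 tested genes, 4828 had a negative dye term.

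For markers of other brain cells the median pair means were 0.03 for 4 oligodendrocyte genes, -0.07 for 4 astrocyte genes, 0.05 for 4 meningeal genes, 0.07 for 5 endothelial genes, -0.01 for 2 erythrocyte genes and 0.02 for 4 neuronal genes. Their median dye terms were -0.12, -0.12, 0.18, 0.22, -0.02 and -0.09 in the same order, and that of all genes was -0.05. The meningeal median dye term was positive in each mouse, from 0.10 to 0.21, and the endothelial one ran from -0.04 to 0.30. The gene values that follow are pair means. Of the astrocyte genes 4 of 4 had a negative pair mean, as did 4422 of all 8711 tested genes. Aqp4, the water channel of astrocyte endfeet, had -0.20 ± 0.14 and the glutamate transporter Slc1a3 -0.06 ± 0.09 (SD, n = 5 each). The 4 probes of Slc1a2, another glutamate transporter, lay between -0.19 and 0.01. The meningeal genes had a positive pair mean in 3 of 4, with Dcn at 0.07 ± 0.24 (SD, n = 4). The collagen genes had -0.0029 and 0.05 on the probes of Col1a1, and -0.23 to 0.13 on the 4 of Col1a2. Of endothelial genes, Pecam1 had 0.07 ± 0.27, Tek 0.28 ± 1.05 and Flt1 -0.64 ± 1.26 (SD, n = 4 each), and the other Flt1 probe had 0.12 ± 0.37 (SD, n = 5). The 6 Hba-a1 probes, for a globin of red blood cells, had means from -0.45 to 0.20. The -0.45, of probe 15327, rested on mouse 3, at -2.70, whose sparse and wide Cy3 array gave -5.215. The other mice lay between -0.09 and 0.26 on that probe. Alas2, of haem synthesis, had 0.03 ± 0.15 (SD, n = 5). Syt1 and Tubb3, of neurons, gave 0.08 ± 0.11 and -0.05 ± 0.12 (SD, n = 5 each), and Rbfox3 gave -0.32 ± 1.55 (SD, n = 4). Of the myelin genes, Mobp had -0.03 ± 0.19 and 0.07 ± 0.19, Mbp -0.07 ± 0.06 and 0.16 ± 0.31, and Mag -0.01 ± 0.56 (SD, n = 5 each). None of these probes passed in either reading. The part that these cells play in the Ttr, Sostdc1, Aqp1 and Igfbp2 values was not tested.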

How the data were processed

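Gene expression was measured on 10 two-colour arrays of brain RNA. The authors' table gives a log2 ratio for each of 20355 probes, already close to centred, with array medians between -0.008 and 0.027. The sources used here do not give the scanner, background correction, normalization or numerator. RNA was isolated with a column kit and labelled indirectly with Cy3 or Cy5, per the labels' protocols. Each array repeated 1 extreme value, of at least 16.4 in size, at 65 to 264 probes, positive with the mutant in Cy5 and negative with it in Cy3. They were kept in the fit.

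Gene symbols were taken from GEO's annotation of the platform, where 14030 probes carried 1 symbol, 5 several and 6320 none. Columns were centred on their median. Whether the pair mean and dye term differed from 0 over mice was tested in limma 3.58.1 (R 4.3.3; lmFit, then eBayes), on probes with both arrays in at least 4 mice, with Benjamini-Hochberg adjustment over all of them. Intervals are 95% intervals of that fit. Precision is limited by the small number of arrays. The mouse was the replicate. The script was tested on simulated data. The genes, lists and tests were chosen with earlier results of these data known. Every probe of the 10 genes was to be named, and of each list the first 3 tested genes in list order (5 for choroid plexus), with the 5 probes most correlated with Ttr and with the gene mean. Alternatives included uncentred columns, arrays scaled to one median absolute value, a block for the mouse over 10 arrays, single orientations, other filters, extremes missing, each mouse left out, no variance moderation and the most complete probe.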

Additional observations from a re-analysis of the deposited data

How the results depend on the processing

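For the pair mean, 0 probes were called under every alternative run, leaving out each mouse included. For the dye term limma called 0 with no centring, other filters, extremes missing or a mouse left out. It called 257 after scaling to one median absolute value. With all 10 arrays in one fit, and a random block for the mouse beside the dye, limma called 2054. A one-sample t-test without variance moderation called 4. Ttr probe 2235 passed in the scaled fit (dye term -0.49, adjusted p = 0.0499) and Ttr probe 19 in the block fit (0.34, adjusted p = 0.0415). Over its 11 alternatives the adjusted p of Ttr probe 2235 ran from 0.0499 to 0.288 and that of probe 19 from 0.0415 to 0.292. In that block fit the within-mouse correlation was -0.0196, so 10 arrays of 5 mice counted as about 10 replicates. Ttr probe 2235 had -0.43 to -0.49 and Ttr probe 19 0.29 to 0.38 across these alternatives.

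The median pair mean over the genes was -0.10 with the mutant in Cy3 only and -0.23 to -0.18 with a mouse left out. It was -0.042 with the Cy3 columns turned in sign, a setting that gives the dye term again. The median dye term was 0.12 with Ttr probe 19 alone for Ttr, where 1 probe was taken per gene by completeness. Both Ttr probes had values on all 10 arrays, so completeness did not favour probe 19. Ttr probe 2235, with a negative dye term, was not run alone. With a mouse left out the median dye term was -0.08 to -0.01. Pair means changed sign with the mutant in Cy3 only for Ttr probe 2235 (0.17) and Sostdc1 (0.11), and with the mutant in Cy5 only for Aqp1 (0.18). With the Cy3 columns turned, where the values are the dye terms given above, the sign differed for Ttr probe 19 (0.34), Aqp1 (0.27) and Igfbp2 (-0.022). With a mouse left out, Aqp1 ran from -0.14 to 0.011 and Igfbp2 from -0.0029 to 0.10, and each changed sign only without mouse 3. The Igfbp2 dye term, near 0, was 0.022 after scaling and -0.081 to 0.035 with a mouse left out, positive without mouse 4 (0.035) or 5 (0.0145). The causes were not tested. The 2 arrays of a mouse were paired in each pair mean and dye term. Without intensities, the signal over background is unknown.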
